A study of Mus musculus with 168 samples.

Results

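Granulocytes sorted from mouse spleen were set against the lymphocytes of the same organ, NK cells and CD4 T cells, in mice that had received vehicle alone. Of the 168 arrays of a study of JAK inhibitors, 15 were plain vehicle arrays of these cell types taken after 14 or 15 treatments. They comprised 5 arrays of Ly6G+ granulocytes (GN), 3 arrays of NK1.1+ cells (NK) and 7 arrays of CD4+ cells (T4). All came from male C57BL/6 mice aged 6 weeks that were gavaged with 0.5% MC (the labels do not spell MC out), with no compound, transgene or mutation named, and each cell type was defined by 1 stated surface marker with no exclusion marker. GN and NK were collected 14 or 15 h after the last treatment and T4 14 to 18 h after it. The first part of a sample title names an experiment. GN came from J2 (1 array), J3 (1) and J6 (3), NK from J2 (2) and J6 (1), and T4 from J2 (1), J25 (2), J3 (1), J6 (1) and J8 (2). The rest of the title gives a number that was read as the animal. On that reading the arrays came from 10 animals, of which 1 gave all 3 cell types, 1 gave GN and NK only, and 2 gave GN and T4 only. Transcript levels were read on Affymetrix Mouse Gene 1.0 ST arrays, on which each gene is represented by a set of short probes. Values are given as log2 intensity, so that a difference of 1 is a doubling. Levels of different genes are not compared with each other, because their probes differ. The reported difference is GN minus the mean of NK and T4, with these weighted equally and the experiment taken into account, and it carries its standard error. J8 and J25 held T4 arrays only, so they added to the estimate of the spread and not to the difference. On the T4 side the difference rests on the arrays of J2, J3 and J6, while printed levels and ranges cover all 7 arrays.

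Granulocytes, of which neutrophils are the most numerous kind, are made in the bone marrow and circulate for a short time before they enter tissues. They form their granules in sequence during maturation: primary granules with proteases, secondary granules with iron-binding and antimicrobial proteins, then tertiary granules and secretory vesicles with matrix-degrading enzymes and surface receptors. They kill microbes with these contents and with oxidants made by the NADPH oxidase, and their production is driven by G-CSF through its receptor and JAK kinases. NK cells kill infected or transformed cells with perforin and granzymes, and CD4 T cells recognise peptides through the T cell receptor. Both lymphocytes depend on cytokines whose receptors share the common gamma chain and signal through JAK1 and JAK3.

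The labels were first checked against marker genes. Ly6g, the gene of the marker used to sort granulocytes (probe set 10424683), had log2 intensities of 12.84, 12.76, 13.26, 12.59 and 12.50 in GN, against 5.72, 5.78 and 5.40 in NK and 5.51 to 6.23 (median 5.82) in T4. All 10 granulocyte markers lay above the array median on all 5 GN arrays, and their mean log2 intensity was 11.77 to 12.76 in GN, 5.90 to 5.97 in NK and 5.96 to 6.43 in T4. The NK markers averaged 5.15 to 5.70 in GN, 11.38 to 12.01 in NK and 5.69 to 6.78 in T4, and the CD4 T cell markers 6.38 to 6.73, 7.40 to 7.99 and 11.27 to 11.81 in the same order. Each population therefore carried its own markers, and since Ly6g, Klrb1c (NK1.1) and Cd4 served the sort, their differences are no finding.

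The lymphocyte arrays were less uniform. Klrb1c lay at 4.53, 5.14, 4.79, 4.72 and 4.92 in GN and at 11.63 to 12.35 in the 3 NK arrays. In T4 it was at 5.24 to 5.84 in the 3 arrays of J2 and J25 and at 7.99 to 10.59 in the 4 arrays of J3, J6 and J8. Cd3e, which encodes a CD3 chain, was at 7.08, 7.47, 7.0, 7.33 and 7.0 in GN, 10.04, 9.55 and 8.43 in NK and 12.39 to 12.70 (median 12.58) in T4. NK arrays thus held more of this T cell transcript than GN arrays did, and 4 of the 7 T4 arrays held more transcript of the NK marker than any GN array. The macrophage gene C1qb reached 9.54 in T4 replicate 6 (J8) against 6.76 to 8.56 in the other T4 arrays, and Clec9a, of cross-presenting dendritic cells, was at 8.26 and 9.37 in the 2 NK arrays of J2 and at 5.0 in that of J6. The part of such cells in the differences below was not tested. In sorted populations, fewer cells of a type and less RNA per cell cannot be told apart. No 2 arrays held identical values. Correlations of log2 intensity ran from 0.9426 to 0.9959 between arrays of the same cell type and from 0.7868 to 0.9596 between cell types.

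Granulocytes differed from lymphocytes in most of the genes expressed. Of 11792 genes tested, 3422 were higher in GN and 5080 lower (limma, Benjamini-Hochberg adjusted p under 0.05), which is 29% and 43.1% of all genes tested. At least 2-fold, 1070 genes (9.07%) were higher and 2605 (22.1%) lower, and at least 4-fold, 479 (4.06%) and 751 (6.37%). Against NK alone 2583 genes were higher (21.9%) and 4345 lower (36.8%), and against T4 alone 3270 (27.7%) and 4846 (41.1%). Both contrasts called 2251 genes higher (19.1%) and 3849 lower (32.6%), and 109 genes (0.924%) were called in opposite directions. The 5 GN arrays lay wholly above or wholly below the 10 lymphocyte arrays for 4475 genes (37.9%). With so many genes called, a single call says little about a gene, so the size of each difference and the overlap of the arrays are given throughout.

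The balance of higher and lower genes depended on the scaling. The median difference over all genes tested was -0.19 as deposited, 0.01 after a further quantile normalization of the 15 arrays and 0.25 after each array was centred on its median, and the calls numbered 3422 higher and 5080 lower, 4235 and 4190, and 5412 and 3227 in the same order. Differences are therefore to be read against -0.19. Differences of several log2 units are little touched by it, whereas those under about 0.5 can change their call or sign. Of the named genes that did not pass, 14 kept their sign and were called higher after median centring, with differences of 0.46 to 0.79: Alpl, Ccrl2, Nod1, Itgb2, Hpgd, Ifnar1, Jak2, Klf13, Klf2, Mdh2, Polr1a, Aurkb, Lmnb2 and Flt3. Rac2, Ccl4, Itgal, Aldoc, Ndufs6, Gins2 and B2m, which had not passed either, changed sign and were called higher (0.38 to 0.44). Jak1, Socs1 and Top2a lost their call under it, and Stat5a lost its call and changed sign. Of the gene lists, those in which many members passed the filter through 1 side alone had a difference in that direction built into their choice, so their counts and medians describe the members and support nothing further.

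The largest difference in the data belonged to Cxcr2, the receptor for the neutrophil-attracting chemokines (probe set 10347291). Its log2 intensity was 12.95, 13.07, 13.12, 13.19 and 13.03 in GN, against 4.37, 4.41 and 4.75 in NK and 4.41 to 5.07 (median 4.71) in T4. It was 8.50 ± 0.12 higher in GN, a 361-fold difference (limma, adjusted p = 6.86e-15), and the groups were far apart. The 15 genes with the largest differences upward that held against both lymphocytes were, after Cxcr2, S100a8, Ngp, Mmp8, Ccr1, Il1f9, S100a9, Csf3r, Retnlg, Lcn2, Ly6g, Il1b, Pla2g7, Clec4d and Clec7a. They encode antimicrobial and calcium-binding proteins, a collagenase, chemokine and growth factor receptors, IL-1 family cytokines and pattern receptors, and their differences ran from 6.63 to 8.50.

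S100a8 and S100a9 encode the subunits of calprotectin, which withholds zinc and manganese from microbes. S100a8 (probe set 10493831) had 13.10, 13.40, 13.62, 13.56 and 13.63 in GN, against 5.37, 5.59 and 5.54 in NK and 5.02 to 5.70 (median 5.33) in T4, a difference of 7.94 ± 0.14 (adjusted p = 2.08e-14). S100a9 had 13.12, 13.41, 13.14, 13.31 and 13.30 in GN, against 5.75, 5.97 and 5.81 in NK and 5.59 to 6.20 (median 5.94) in T4, a difference of 7.45 ± 0.12. For both, every GN array lay at least 6 log2 units above every lymphocyte array. The other S100 genes did not follow. Of 8 tested, 4 were higher and 4 lower (over all genes 29% and 43.1%; median 0.15). S100a10, the annexin A2 partner, fell in GN, with 7.24, 7.12, 7.33, 7.26 and 6.65 in GN, against 12.44, 12.28 and 12.62 in NK and 11.39 to 12.82 (median 12.33) in T4 (difference -5.23 ± 0.19). S100a6 was 2.69 ± 0.18 higher, with T4 at 6.04 to 6.32 in J2 and J25 and at 8.7 to 8.98 in J3, J6 and J8. S100a4 differed by -1.09 ± 0.23, with the same split of the T4 arrays (7.16 to 7.19 and 8.93 to 9.58), and 3 alternatives ended its call: the inhibitor-treated animals gave -0.21, leaving the experiment out of the model gave -0.78, and the J2 arrays by themselves gave -0.30.

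The promoters of 5 granulocyte genes are shown because these genes rose together and because C/EBP factors and PU.1, the drivers of granulocyte maturation, bind known letter patterns. Each is the 250 bases before the gene's start, 5′ to 3′ on the gene's strand, from RefSeq (GRCm38.p6), with matches in capitals.
S100a8, chr3:90668821-90669070, plus strand: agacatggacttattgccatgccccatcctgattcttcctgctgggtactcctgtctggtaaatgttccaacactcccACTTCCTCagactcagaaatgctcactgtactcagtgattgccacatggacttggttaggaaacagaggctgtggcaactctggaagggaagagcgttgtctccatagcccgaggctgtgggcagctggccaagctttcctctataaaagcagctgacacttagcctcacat
S100a9, chr3:90695722-90695971, minus strand: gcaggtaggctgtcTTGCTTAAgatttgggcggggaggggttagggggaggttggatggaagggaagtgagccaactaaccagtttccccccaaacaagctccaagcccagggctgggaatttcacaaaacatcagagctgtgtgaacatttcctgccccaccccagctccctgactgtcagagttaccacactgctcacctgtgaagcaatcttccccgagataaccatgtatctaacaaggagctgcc
Ltf, chr9:111019042-111019291, plus strand: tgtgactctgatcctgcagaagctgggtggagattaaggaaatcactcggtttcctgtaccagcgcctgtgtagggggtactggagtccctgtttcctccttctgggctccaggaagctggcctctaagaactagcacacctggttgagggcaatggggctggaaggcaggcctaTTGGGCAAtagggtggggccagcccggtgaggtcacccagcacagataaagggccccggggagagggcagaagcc
Ngp, chr9:110419558-110419807, plus strand: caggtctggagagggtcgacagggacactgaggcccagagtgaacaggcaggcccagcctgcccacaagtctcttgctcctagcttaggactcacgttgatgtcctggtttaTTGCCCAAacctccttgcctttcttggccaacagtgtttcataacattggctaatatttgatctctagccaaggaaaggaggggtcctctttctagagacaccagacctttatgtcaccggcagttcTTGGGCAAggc
Lcn2, chr2:32387740-32387989, minus strand: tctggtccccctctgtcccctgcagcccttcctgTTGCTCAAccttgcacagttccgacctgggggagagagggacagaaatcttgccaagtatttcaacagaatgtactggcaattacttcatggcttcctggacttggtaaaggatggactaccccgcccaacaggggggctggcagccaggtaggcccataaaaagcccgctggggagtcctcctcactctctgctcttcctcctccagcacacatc
The capitals mark TTGCNNAA (C/EBP type) in S100a9, in Lcn2 and in the Ngp stretch farther from the gene's start. In Ltf and in the Ngp stretch nearer the start they mark the reverse complement of TTGCNNAA. In S100a8 they mark the reverse complement of GAGGAAGT (PU.1 type). Both patterns were searched on both strands with no overlap between matches. Of 32851 promoters of this length, 9.56% held the C/EBP-type letters and 2.44% the PU.1-type letters. Of the 15 secondary granule genes tested, 13 had a promoter in the table, of which 5 (38.5%) held the C/EBP type and 1 (7.69%) the PU.1 type. A match describes the letters only.

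Secondary granule genes were higher in GN throughout the list. All 15 tested members rose (background 29%), 14 of them at least 2-fold, with a median difference of 4.11 against -0.19 for all genes. Of these, 12 had passed the filter on low signal only through the GN arrays, so a high difference was built into the choice. Another 3 listed genes had no value of their own or stayed below the filter. Ngp, an antimicrobial protein of the cathelicidin family (probe set 10589535), had 13.29, 12.05, 13.49, 12.65 and 12.84 in GN, against 5.63, 5.11 and 5.39 in NK and 4.95 to 5.45 (median 5.21) in T4 (difference 7.61 ± 0.20). Lcn2, lipocalin 2, which captures bacterial siderophores, had 13.82, 13.83, 14.02, 13.56 and 13.66 in GN, against 6.6, 6.5 and 6.69 in NK and 6.22 to 6.49 (median 6.38) in T4 (7.26 ± 0.12). In both, no GN array came within 5 log2 units of a lymphocyte array. Hp, haptoglobin, which binds free haemoglobin, was at 12.09 to 12.36 in GN, 5.83 to 6.46 in NK and 5.88 to 6.6 in T4. Slpi, a protease inhibitor, was at 11.52 to 11.89, 7.16 to 7.41 and 7.06 to 7.40 in the same order. Orm2, an acute-phase glycoprotein, differed least, by 0.93 ± 0.22, with GN replicate 5 at 8.41 and the other 4 at 7.17 to 7.39.

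The GN array of J3 stood apart in a subset of these genes. Camp, the cathelicidin antimicrobial peptide, had 11.24, 8.18, 11.92, 10.75 and 11.93 in GN, against 6.77, 6.87 and 6.65 in NK and 6.50 to 6.96 (median 6.72) in T4, so that GN replicate 2 (J3) lay more than 2 units below the other GN arrays and still above every lymphocyte array. Ltf, lactoferrin, and Cd177, a neutrophil surface protein, named after their values were seen, had 12.15, 8.52, 12.40, 11.04 and 11.68 and 10.93, 9.19, 10.61, 9.68 and 10.15 in GN, again lowest in replicate 2. Lymphocyte arrays were at 5.37 to 5.94 for Ltf and 6.76 to 7.47 for Cd177. Ngp, given above, was lowest in replicate 2 as well. In the same array S100a8 (13.40), S100a9 (13.41), Lcn2 (13.83) and Cxcr2 (13.07) were not the lowest of the GN arrays. The mean over the 15 secondary granule genes was 10.86, 9.90, 11.21, 10.42 and 10.75 in GN replicates 1 to 5, 6.51, 6.37 and 6.28 in NK and 6.17 to 6.5 in T4. The differences of the list remained without that array (15 of 15 higher, median 4.53). J3 holds 1 GN array, so animal and experiment cannot be told apart.

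**Figure D1:**
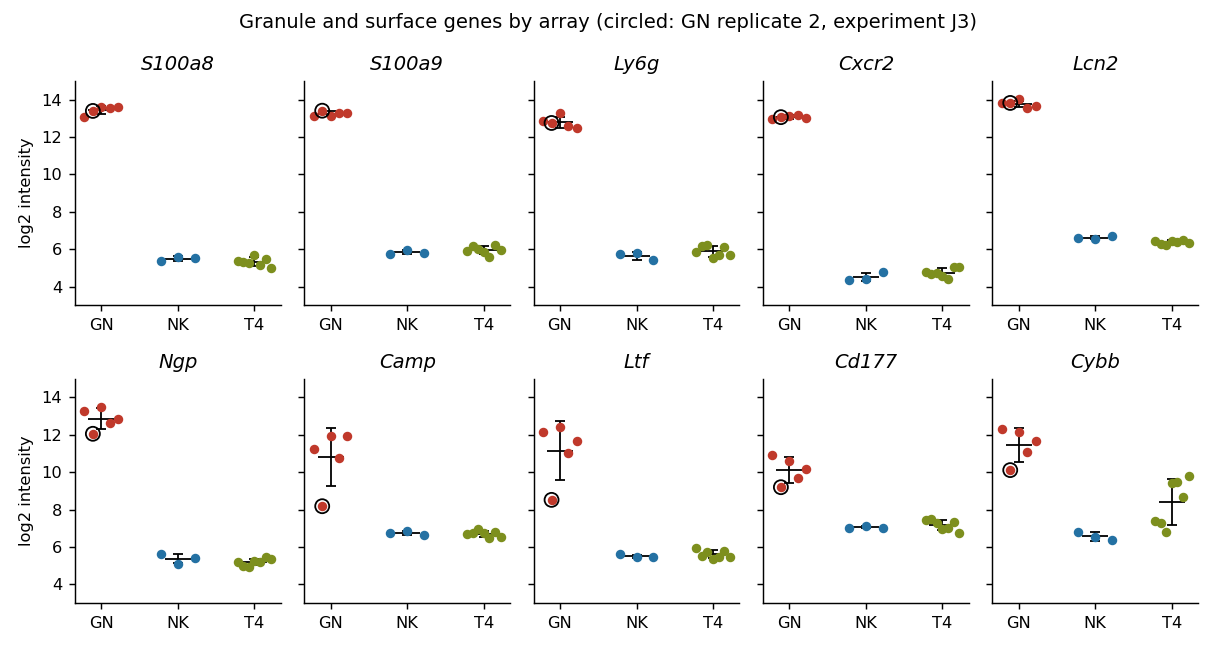
Log2 intensity (vertical axis) of 10 granule and surface genes on each array of GN, NK and T4. Points are arrays, the bar is the mean with its SD, and the open circle marks GN replicate 2 of J3. That array is the lowest GN array in Camp (8.18), Ltf (8.52), Cd177 (9.19), Cybb (10.11) and Ngp. It is among the other GN arrays in S100a8, S100a9, Cxcr2 and Lcn2.

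Tertiary granule and secretory vesicle genes were as high. Of 13 tested, 12 rose at least 2-fold (background 9.07%; median 4.18), 8 having passed the filter only through GN. Mmp8, the neutrophil collagenase, had 12.61, 12.214, 12.61, 12.174 and 12.241 in GN, against 5.20, 4.86 and 4.77 in NK and 4.38 to 5.04 (median 4.80) in T4 (7.54 ± 0.13). Cd33, a sialic acid-binding inhibitory receptor, was 6.24 ± 0.11 higher, Arg2, an arginase, 6.59 ± 0.12, and Retnlg, a resistin-like secreted protein, 7.29 ± 0.12. In these 4 genes the GN arrays lay within 0.5 units of each other, and replicate 2 was the lowest in none. Alpl, tissue-nonspecific alkaline phosphatase, was the exception, with 7.34, 7.89, 7.27, 7.18 and 7.12 in GN, 6.89, 6.91 and 6.62 in NK and 7.01 to 7.55 (median 7.28) in T4. Its difference of 0.35 ± 0.15 did not pass (adjusted p = 0.0524) but lay near the threshold, and 9 of the 30 alternatives passed it, the largest being median centring (0.79).

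Only 5 of 10 primary granule genes reached the filter, which asks for a level above the array median on at least 3 arrays and is no detection limit. Those below it were Mpo, Elane, Prtn3, Ctsg and Bpi, the genes of myeloperoxidase, neutrophil elastase, proteinase 3, cathepsin G and a bactericidal protein. Mpo and Elane, singled out after their values were seen, lay at 6.73 to 7.11 and 6.60 to 7.39 in GN, 6.43 to 6.45 and 6.33 to 6.70 in NK and 6.32 to 6.82 and 6.18 to 6.45 in T4. For Elane the GN arrays lay above every T4 array and overlapped with NK. Of the 5 tested members, 4 rose and 1 fell (over all genes 29% and 43.1%), and 2 had passed only through GN. Without the filter 8 of 10 were higher and 1 lower, with a median of 0.56. Over all 19752 genes without the filter, 7919 were higher and 5262 lower, with a median of 0.24. Of the 7960 genes below the filter, 4485 were called higher in that fit. Lyz2, lysozyme, had 13.12, 13.21, 13.62, 13.30 and 13.41 in GN, against 8.01, 6.95 and 7.93 in NK and 5.86 to 10.46 (median 8.05) in T4 (5.55 ± 0.34), its T4 value of 10.46 coming from replicate 6, the array with the most C1qb. Ctsc, the protease that activates the granule serine proteases of granulocytes and cytotoxic cells, fell in GN, with 7.39, 8.51, 7.40, 7.28 and 7.57 in GN, against 10.79, 10.93 and 11.44 in NK and 9.74 to 10.26 (median 9.77) in T4 (-2.92 ± 0.19). Serpinb1a, an inhibitor of these proteases, was 2.87 ± 0.32 higher and again lowest in GN replicate 2 (7.75, against 8.7 to 9.96).

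Receptors for chemoattractants rose in 8 of 9 tested members (over all genes 29%; median 4.14; 7 passed the filter only through GN). Beside Cxcr2, Ccr1, a receptor for inflammatory chemokines, had 11.66, 11.57, 11.52, 11.73 and 11.48 in GN, against 4.59, 4.13 and 4.0 in NK and 3.85 to 4.72 (median 4.03) in T4 (7.52 ± 0.14). C5ar1, the receptor for the complement fragment C5a, was 5.49 ± 0.16 higher and Hcar2, a niacin and ketone body receptor, 3.97 ± 0.12. GN did not overlap with lymphocytes in any of the 8, where 1686 of all 11792 genes lay wholly higher. Ccrl2, an atypical receptor that presents chemerin, had 8.43, 7.60, 7.87, 7.68 and 8.56 in GN, against 8.22, 7.51 and 8.46 in NK and 5.91 to 8.35 (median 7.42) in T4. Its difference of 0.29 ± 0.29 did not pass (adjusted p = 0.376).

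Sensors of microbes rose in 25 of 28 members, each at least 2-fold (background 9.07%), with a median of 3.71 and 14 members that passed the filter only through GN. Clec4d and Clec7a, C-type lectins that bind fungal cell walls, were 6.71 ± 0.16 and 6.63 ± 0.13 higher. Trem1, which amplifies inflammation, was 5.75 ± 0.12 higher and Nlrp3, the inflammasome sensor, 5.44 ± 0.13. Clec7a shows the pattern of these genes, with 12.45, 12.174, 12.29, 12.45 and 12.32 in GN, against 5.28, 5.86 and 5.58 in NK and 5.57 to 6.45 (median 5.84) in T4. Tlr1, a receptor for bacterial lipopeptides, named because it was the single member that fell, differed by -0.96 ± 0.21. Nod1, a cytosolic sensor of bacterial cell wall fragments, was at 9.69 to 10.09 in GN, 10.05 to 10.53 in NK and 8.42 to 9.37 in T4, and did not pass against both lymphocytes together (adjusted p = 0.189) but was -0.47 against NK (adjusted p = 0.0529) and 0.94 against T4 (adjusted p = 0.000479).

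Fc receptors, integrins and their kinases rose in 15 of 16 members and fell in none (over all genes 29% and 43.1%; median 3.53), 3 having passed the filter only through GN. Fcgr4, an activating receptor for IgG, had 10.95, 11.36, 11.55, 11.62 and 11.20 in GN, against 5.94, 5.86 and 5.57 in NK and 5.27 to 6.52 (median 5.72) in T4 (5.50 ± 0.16). Cd300ld was 6.5 ± 0.18 higher, Sirpa, which receives the CD47 signal of healthy cells, 4.60 ± 0.12, and Pilra, an inhibitory receptor of the sensor list, 6.61 ± 0.12. NK cells shared some of these genes. Itgax, CD11c, had 10.91, 10.47, 11.02, 10.18 and 10.78 in GN, against 11.60, 11.81 and 12.242 in NK and 6.07 to 6.97 (median 6.47) in T4: GN lay below every NK array (-1.25, adjusted p = 0.000455) and above every T4 array (4.40, adjusted p = 8.18e-10). Tyrobp, the adaptor DAP12, named after its values were seen, was at 13.04 to 13.26 in GN, 12.50 to 12.79 in NK and 6.92 to 9.05 in T4, a difference of 5.62 against T4 and 0.34 against NK (adjusted p = 0.186). Itgb2, the integrin chain CD18, was at 11.97 to 12.39, 11.95 to 12.42 and 10.98 to 11.84 in the same order, and its difference of 0.26 ± 0.16 did not pass (adjusted p = 0.165).

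The NADPH oxidase list held both directions. Of 7 tested members, 5 rose and 1 fell (over all genes 29% and 43.1%). Cybb, the catalytic subunit, had 12.29, 10.11, 12.15, 11.07 and 11.69 in GN, against 6.81, 6.51 and 6.34 in NK and 6.78 to 9.78 (median 8.7) in T4 (3.74 ± 0.45), with GN replicate 2 lowest, and T4 at 6.78 to 7.38 in J2 and J25 and 8.7 to 9.78 in the other 4 arrays. Ncf1, the p47 organiser, was 4.17 ± 0.17 higher and Ncf4, the p40 subunit, 1.54 ± 0.14. Rac2, the GTPase of the complex in blood cells, was at 12.66 to 12.96 in GN, 12.78 to 12.84 in NK and 12.76 to 13.03 in T4. Its difference of -0.04 ± 0.11 did not pass (adjusted p = 0.761) and turned to 0.41 under median centring. Hvcn1, the proton channel that balances the oxidase's charge, fell by 1.71 ± 0.37, with GN at 8.6, 6.99, 8.99, 7.17 and 8.52, NK averaging 9.21 ± 0.76 (SD, n = 3) and T4 at 9.35 to 10.59 (median 10.33).

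Genes of IL-1 and inflammation rose in 12 of 17 tested members and fell in 1 (over all genes 29% and 43.1%; median 2.72). Of these, 8 had passed the filter only through GN, and without the filter the median over 21 members was 1.43. Il1b, interleukin 1 beta, had 12.54, 12.53, 12.50, 12.50 and 12.49 in GN, against 5.85, 5.91 and 5.41 in NK and 5.46 to 6.24 (median 5.58) in T4 (6.92 ± 0.11, adjusted p = 1e-14). The 5 GN arrays spanned only 0.05 units. Il1f9, the IL-36 gamma gene, one of the 15 largest differences and outside the list, had 12.01, 12.12, 12.06, 12.05 and 11.99 in GN, against 4.96, 4.91 and 4.31 in NK and 4.55 to 4.96 (median 4.69) in T4 (7.45 ± 0.12). Ccl6, a chemokine of mouse myeloid cells, was 6.43 ± 0.12 higher and Tnfaip2, a TNF-induced gene, 5.22 ± 0.13. Ccl4, a chemokine of activated NK cells and macrophages, lay between the lymphocytes, -0.73 against NK (adjusted p = 0.00478) and 0.72 against T4 (adjusted p = 0.00273).

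Lipid mediator enzymes rose in 6 of 9 tested members and fell in none (over all genes 29% and 43.1%; median 2.63). Of these, 5 had passed the filter only through GN, and without the filter the median over 12 members was 0.89. Alox5, 5-lipoxygenase, which starts leukotriene synthesis, had 11.91, 11.90, 11.97, 11.56 and 11.87 in GN, against 6.26, 6.45 and 6.21 in NK and 5.98 to 6.59 (median 6.18) in T4 (5.67 ± 0.14), and its activating protein Alox5ap was 5.99 ± 0.23 higher. Pla2g7, which inactivates platelet-activating factor, had 12.48 to 12.58 in GN, 5.72 to 5.96 in NK and 5.49 to 6.44 in T4 (6.72 ± 0.13). Ptgs2, cyclooxygenase 2, was 5.13 ± 0.22 higher, with a wider GN spread of 10.42 to 12.13. Hpgd, which degrades prostaglandins, was 0.08 ± 0.14 (adjusted p = 0.62) with overlapping arrays.

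Cytokine receptors divided by the lineage they serve. Of 19 tested receptors listed as myeloid, 11 rose and 3 fell (over all genes 29% and 43.1%; median 1.29), 3 having passed the filter only through GN and 2 only through lymphocytes. Of 7 tested receptors of the common gamma chain family, 1 rose and 5 fell (median -2.04), 3 having passed only through lymphocytes. Il2rg, the gamma chain itself, and Jak3, its kinase, were not analysed here. Csf3r, the G-CSF receptor (probe set 10508074), had 13.54, 13.43, 13.58, 13.37 and 13.62 in GN, against 6.47, 6.30 and 6.04 in NK and 5.85 to 6.91 (median 6.16) in T4 (7.33 ± 0.18, adjusted p = 2.34e-13). Csf2rb, the shared beta chain of the GM-CSF, IL-3 and IL-5 receptors, had 11.48, 11.88, 11.61, 11.39 and 11.58 in GN, against 6.77, 7.32 and 6.77 in NK and 6.50 to 7.24 (median 6.76) in T4 (4.69 ± 0.16). Il13ra1, a chain of the IL-4 and IL-13 receptor, was 5.88 ± 0.21 higher and Csf1r, the M-CSF receptor, 3.65 ± 0.21. In all of these the GN arrays lay above all lymphocyte arrays, where 1686 of all 11792 genes did.

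The lymphocyte receptors mirrored them. Il2rb, the beta chain for IL-2 and IL-15 (probe set 10430344), had 5.60, 6.14, 5.78, 5.88 and 6.16 in GN, against 12.12, 12.35 and 12.82 in NK and 9.75 to 12.40 (median 11.32) in T4, a 69.5-fold fall in GN (-6.12 ± 0.25). Its T4 arrays of J2 and J25 (9.75 to 10.32) were below those of J3, J6 and J8 (11.32 to 12.40). Il7r, the IL-7 receptor on which naive T cells depend, had 5.55, 5.46, 5.47, 5.50 and 5.42 in GN, against 10.45, 11.07 and 10.11 in NK and 11.12 to 12.40 (median 12.13) in T4 (-5.80 ± 0.18). Il2ra differed by -3.49 ± 0.24 and Il21r by -2.04 ± 0.14. Il15ra, which presents IL-15 to other cells, was at 8.0 to 8.6 in GN, 8.45 to 8.7 in NK and 7.64 to 8.94 in T4 and did not pass (adjusted p = 0.23).

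The 2 chains of the IL-6 receptor went apart. Il6ra, the ligand-binding chain, had 11.28, 11.37, 11.25, 10.82 and 11.62 in GN, against 7.48, 7.60 and 7.46 in NK and 10.14 to 11.45 (median 11.02) in T4. GN and T4 overlapped (0.14, adjusted p = 0.49) and both lay above NK (GN minus NK 3.83, adjusted p = 9.61e-10). Il6st, the signalling chain gp130, had 6.03, 5.98, 6.43, 6.35 and 6.80 in GN, against 7.47, 8.10 and 7.73 in NK and 10.05 to 11.34 (median 10.98) in T4, lower in GN than in NK (-1.42) and much lower than in T4 (-4.84). GN arrays therefore had the binding chain within or near the range of T4 and the signalling chain below every lymphocyte array. The interferon receptor chain Ifnar1 was at 9.98 to 10.17 in GN, 9.75 to 10.05 in NK and 9.89 to 10.02 in T4 (0.14 ± 0.11, adjusted p = 0.251). Ifngr1 was -0.99 against NK (adjusted p = 0.000178) and 0.62 against T4 (adjusted p = 0.00338). Il10ra, the IL-10 receptor, was -2.06 against NK (adjusted p = 7.26e-05), whereas against T4 the difference was -0.55 (adjusted p = 0.111).

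Of the kinases that these receptors use, the targets of the compounds of the study, 3 were tested. Their differences ran from -1.78 to 0.04. Jak1 (probe set 10514668) had 11.98, 11.62, 11.85, 11.60 and 11.90 in GN, against 12.49, 12.94 and 12.68 in NK and 11.59 to 12.44 (median 12.06) in T4, a 1.51-fold fall in GN (-0.59 ± 0.12, adjusted p = 0.00082). GN overlapped with T4 but not with NK. After median centring the difference was -0.15 and no longer passed (adjusted p = 0.302). Jak2, which serves the G-CSF and GM-CSF receptors, had 10.34, 9.92, 9.84, 9.68 and 10.05 in GN, against 9.99, 10.11 and 9.55 in NK and 9.07 to 10.27 (median 9.95) in T4, with no difference past the threshold (0.04 ± 0.20, adjusted p = 0.871). Tyk2, the partner of interferon and IL-12 receptors, had 8.07, 7.95, 8.6, 7.74 and 8.51 in GN, against 9.69, 10.08 and 10.65 in NK and 9.02 to 9.82 (median 9.20) in T4, and was below every lymphocyte array (-1.78 ± 0.20).

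Of the STAT factors, 3 rose and 2 fell among 6 tested (over all genes 29% and 43.1%). Stat3, which acts downstream of G-CSF and IL-6, had 11.11, 11.18, 11.17, 10.86 and 11.27 in GN, against 10.55, 10.66 and 10.76 in NK and 10.52 to 10.78 (median 10.64) in T4 (0.42 ± 0.11, adjusted p = 0.0052). Stat6, of IL-4 and IL-13 signalling, had 11.33, 11.10, 11.28, 11.01 and 11.45 in GN, against 10.48, 10.70 and 10.76 in NK and 10.12 to 10.69 (median 10.50) in T4 (0.64 ± 0.13). In both the GN arrays lay just above all lymphocyte arrays. Stat4, of IL-12 signalling, was below them, at 11.03, 10.53, 10.73, 10.39 and 10.32 in GN, 12.48, 12.61 and 12.38 in NK and 11.10 to 11.70 (median 11.38) in T4 (-1.31 ± 0.16). Stat5b was 1.14 against NK and 0.06 against T4 (adjusted p = 0.763). Stat5a differed by -0.30 ± 0.11 (adjusted p = 0.0304), a call that was lost with the animal as a fixed block (-0.34, adjusted p = 0.0566) and without any 1 of GN replicate 2, NK replicate 2 or 3 or T4 replicate 4 or 5 (-0.30 to -0.26), and turned in sign by quantile normalization (0.06) and median centring (0.15). Stat2 did not pass (-0.28 ± 0.16, adjusted p = 0.128).

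Of the feedback genes of the pathway, 6 of 19 rose and 8 fell, shares near the 29% and 43.1% of all genes. Their median was -0.29, and 0.15 after median centring, beside -0.19 and 0.25 for all genes. Socs3, which damps G-CSF and IL-6 receptors, had 9.0, 10.52, 9.94, 9.47 and 10.70 in GN, against 7.54, 7.31 and 8.03 in NK and 8.46 to 9.10 (median 8.78) in T4 (1.53 ± 0.22). GN replicate 1 (9.0) lay within the T4 range and the other 4 above it. Socs2 had 6.4, 6.67, 6.50, 7.28 and 6.6 in GN, against 8.7, 8.90 and 8.7 in NK and 7.19 to 9.69 (median 9.14) in T4 (-2.3 ± 0.28), with T4 at 7.19 to 7.40 in J2 and J25 and 9.14 to 9.69 in the others. Cish, a STAT5 target, was -1.82 against T4 and did not differ past the threshold from NK (-0.29, adjusted p = 0.425). Ptpn6, the phosphatase SHP-1, was 1.66 ± 0.11 higher with no overlap, and the kinase gene Pim2 fell by 1.64 ± 0.17. Socs1 differed by -0.59 ± 0.20 (adjusted p = 0.0171), a call lost under 7 of the alternatives, quantile normalization (-0.16), median centring (-0.15) and leaving out NK replicate 3 (-0.52) or T4 replicate 5 (-0.53) among them. Pim1 had 9.50, 9.82, 9.62, 9.40 and 10.86 in GN, against 8.7, 9.32 and 10.52 in NK and 8.81 to 10.36 (median 9.67) in T4 and did not pass (adjusted p = 0.607).

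**Figure D2:**
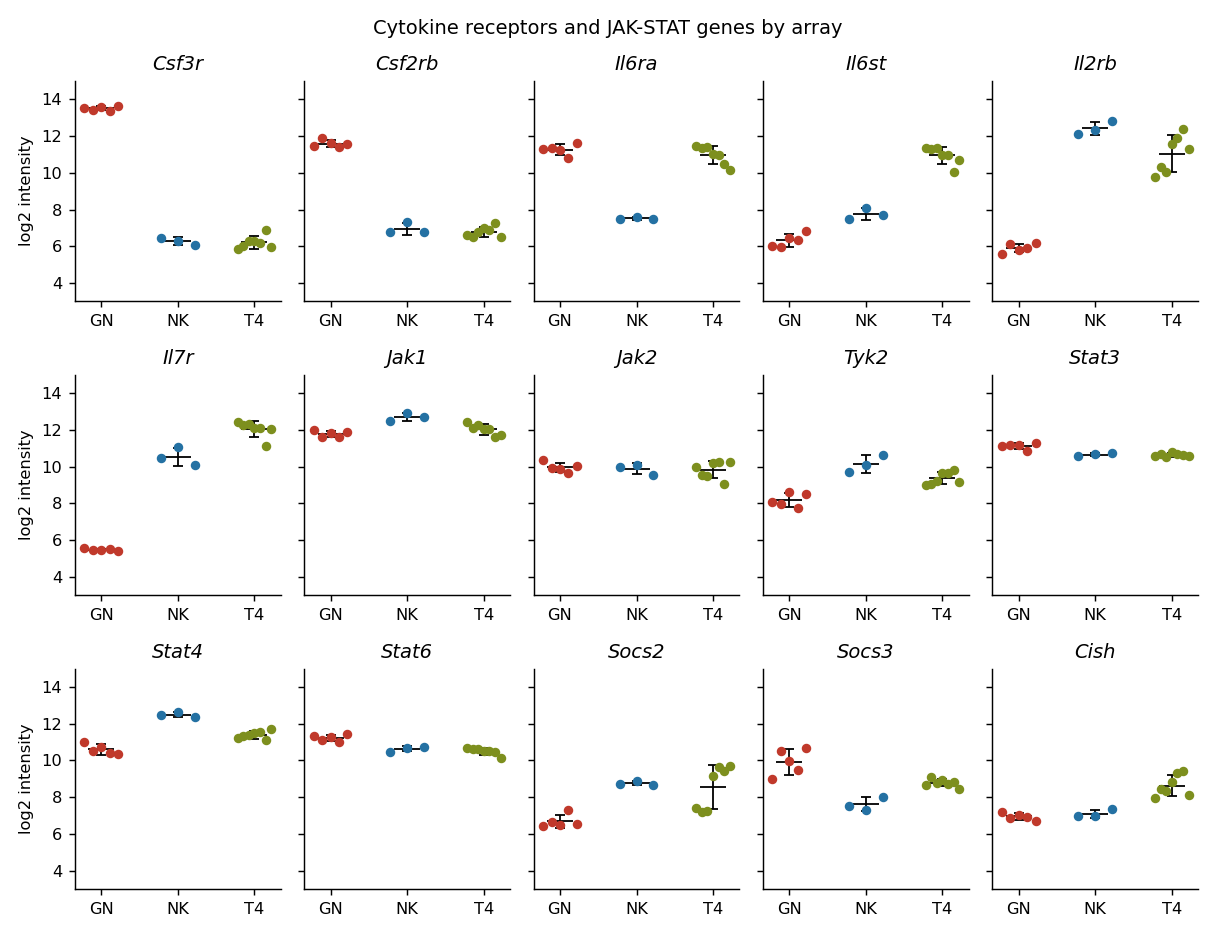
Log2 intensity (vertical axis) of 15 cytokine receptor and JAK-STAT genes on each array of GN, NK and T4, with the mean and SD as bars. Csf3r and Csf2rb are high in GN alone, Il2rb and Il7r are at 5.42 to 6.16 there, Il6ra is shared with T4, and Jak1, Jak2 and Stat3 differ by less than 1 unit.

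Transcription factors followed the lineages. Of 23 myeloid factors tested, 18 rose and 4 fell (median 2.04), and of 23 lymphoid factors 1 rose and 21 fell (median -2.2), where all genes gave 29% and 43.1%. The filter had been passed only through GN by 5 of the myeloid factors and only through lymphocytes by 11 of the lymphoid ones. Spi1, PU.1, had 12.78, 12.88, 12.90, 12.71 and 12.83 in GN, against 7.26, 7.85 and 6.50 in NK and 5.91 to 8.26 (median 6.75) in T4 (5.99 ± 0.25). Cebpd, a C/EBP factor, was 4.13 ± 0.20 higher, with GN replicate 1 at 9.15 and the others at 10.13 to 10.36. Nfe2 was 3.53 ± 0.11 higher and Bach1, a repressor of haem-responsive genes, 2.1 ± 0.11. Irf8, which favours monocytes over granulocytes, and Id2, which NK cells require, were named after their values were seen as 2 of the 4 that fell. Irf8 was -4.06 against NK and -1.16 against T4, and Id2 -3.22 against NK and -1.69 against T4. T4 was lower in J2 and J25 than in J3, J6 and J8 in both, at 7.87 to 8.26 and 9.05 to 9.62 for Irf8 and at 10.16 to 10.99 and 12.36 to 12.95 for Id2. Klf13 did not pass (0.02 ± 0.20, adjusted p = 0.927).

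Among the lymphoid factors, Ikzf3, Aiolos, had 6.25, 6.5, 6.30, 6.35 and 6.43 in GN, against 11.37, 11.59 and 11.68 in NK and 10.13 to 10.83 (median 10.22) in T4 (-4.74 ± 0.14). Gata3, which directs T helper and innate lymphoid cells, differed by -3.74 ± 0.16 and Foxo1, which keeps Il7r and homing receptors on in T cells, by -3.54 ± 0.16. Eomes, the NK and memory factor, was -5.92 against NK and -1.73 against T4. GN did not overlap with lymphocytes in any of these 4, nor in 16 of the 23 members tested, where 2789 of all 11792 genes lay wholly lower. Klf2, the factor of quiescence and egress, was at 9.66 to 10.74 in GN, 9.09 to 10.23 in NK and 9.11 to 10.12 in T4 and did not pass (adjusted p = 0.197).

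The 15 largest falls that held against both lymphocytes ran from -6.59 to -5.43. They included Ms4a4b, a membrane protein of T and NK cells, Gimap3, Gimap4 and Gimap6, GTPases of lymphocyte survival, Nkg7, a cytotoxic granule protein, and Tespa1, which aids T cell receptor signalling. Ms4a4b (probe set 10461605) had 4.07, 4.48, 4.14, 4.56 and 4.20 in GN, against 11.23, 11.23 and 10.88 in NK and 9.76 to 10.91 (median 10.77) in T4 (-6.59 ± 0.19, adjusted p = 1.24e-12). Gimap3 had 4.87, 5.08, 4.87, 5.33 and 5.16 in GN, against 11.20, 11.50 and 11.31 in NK and 11.66 to 11.88 (median 11.82) in T4 (-6.5 ± 0.13). Cd96, a receptor for nectins, differed by -5.75 ± 0.13. Their place in the list required a fall in GN against NK and against T4, but not equal levels in NK and T4. Ms4a4b and Gimap3 lay far above GN in both lymphocytes, whereas the fall of Nkg7 was larger against NK than against T4, as given below.

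T cell receptor signalling genes fell in 23 of 25 tested members, each at least 2-fold (background 22.1%), with a median of -3.62. Of the 25, 17 had passed the filter only through lymphocytes, so a fall was built into the choice. Some are shared with NK cells. Fyn, a Src-family kinase, had 6.06, 5.13, 5.21, 6.27 and 5.55 in GN, against 10.85, 11.42 and 11.62 in NK and 10.99 to 11.62 (median 11.13) in T4 (-5.78 ± 0.23). Cd2, an adhesion receptor, differed by -5.36 ± 0.12, Rasgrp1, which activates Ras, by -5.19 ± 0.12, Prkcq, protein kinase C theta, by -5.0 ± 0.12, and Cd28, the costimulatory receptor, by -5.30 ± 0.18. Others were T cell genes alone: Cd5 was -4.73 against T4 and 0.14 against NK (adjusted p = 0.438), and Cd6, also a T cell surface receptor, -3.50 against T4 and 0.65 against NK (adjusted p = 0.0403). Lcp2, the adaptor SLP-76, used by myeloid cells too, was 1 of the 2 that rose, with 12.67, 12.66, 12.59, 12.48 and 12.35 in GN, against 12.29, 11.98 and 11.94 in NK and 12.16 to 12.57 in T4 (0.41 ± 0.12, adjusted p = 0.00959). That call was lost after quantile normalization (0.20) and without NK replicate 3 (0.37).

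Cytotoxic and NK genes fell in 24 of 27 tested members and rose in 2 (over all genes 43.1% and 29%), but 23 had passed the filter only through lymphocytes. With the NK and T4 arrays taken as 1 group, 17 were lower. Their median was -6.05 against NK and -1.36 against T4, beside -0.14 and -0.20 for all genes. Gzma, a granzyme, had 4.65, 5.64, 5.07, 5.51 and 5.20 in GN, against 11.08, 11.39 and 11.997 in NK and 4.91 to 5.72 (median 5.14) in T4: it fell against NK (-6.49) and overlapped with T4 (0.10, adjusted p = 0.671). Prf1, perforin, was -5.01 against NK and -1.01 against T4 (adjusted p = 0.00967). Ncr1, the receptor NKp46, had 5.26, 5.91, 5.21, 6.08 and 5.69 in GN, 13.48, 13.57 and 13.55 in NK and 4.65 to 5.41 (median 4.93) in T4. Nkg7 was -7.73 against NK and -4.78 against T4, where it lay at 8.7 to 9.43 in J2 and J25 and at 11.99 to 12.79 in J3, J6 and J8. The T4 arrays high in Nkg7 were those that held Klrb1c, whose part in the T4 contrast was not tested. Klrd1 and Klrk1, NK lectin receptors, were -7.13 and -6.92 against NK.

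Genes of lymphocyte trafficking fell in 15 of 18 tested members and rose in none (over all genes 43.1% and 29%; median -1.82), 9 having passed the filter only through lymphocytes. S1pr1, the receptor for exit from lymphoid organs, had 7.10, 7.14, 6.82, 7.12 and 6.77 in GN, against 10.04, 10.33 and 10.25 in NK and 10.49 to 11.89 (median 11.21) in T4 (-3.73 ± 0.14). Gpr183, which places cells at follicle borders, differed by -2.67 ± 0.16. Ccr9, a gut-homing receptor, was -3.02 against T4 (adjusted p = 4.93e-05) and -0.55 against NK (adjusted p = 0.34). Itgal, the LFA-1 chain of all leukocytes, was at 11.37 to 11.85 in GN, 11.47 to 12.06 in NK and 10.75 to 11.77 in T4. It did not pass (adjusted p = 0.86), and its difference of -0.03 was 0.41 under median centring.

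**Figure D3:**
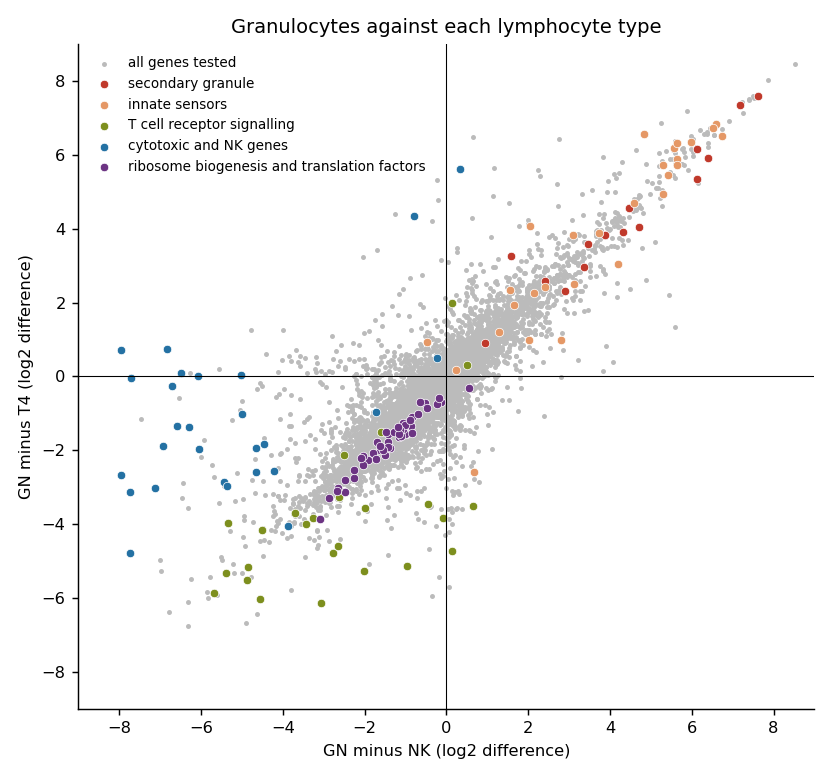
Log2 difference of GN minus NK (horizontal axis) and GN minus T4 (vertical axis) for the 11792 genes tested (grey) and the members of 5 lists (colours). Secondary granule genes and innate sensors lie in the upper right, ribosome biogenesis genes in the lower left, and cytotoxic genes are spread to the left, with medians of -6.05 against NK and -1.36 against T4.

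Genes of protein synthesis were lower in GN with few exceptions. Of 47 tested genes of ribosome biogenesis and translation factors, 46 fell and none rose, 38 of them at least 2-fold (background 22.1%), with a median of -1.48, 14 having passed the filter only through lymphocytes. The median was -1.35 after quantile normalization and -1.04 after median centring, beside 0.01 and 0.25 for all genes. The mean over the list was 8.13, 7.82, 8.10, 7.97 and 8.07 in GN, 9.34, 9.38 and 9.53 in NK and 9.64 to 9.85 in T4, with no overlap. Dkc1, dyskerin, which modifies ribosomal RNA, had 6.43, 5.70, 6.38, 5.95 and 6.01 in GN, against 9.18, 9.26 and 8.59 in NK and 8.09 to 9.58 (median 8.96) in T4 (-2.83 ± 0.16). Wdr43 and Wdr75, of the particle that processes ribosomal RNA, differed by -2.89 ± 0.15 and -2.64 ± 0.15, and Utp20 by -1.82 ± 0.12. Polr1a, the large subunit of RNA polymerase I, was the one that did not pass (0.12 ± 0.21, adjusted p = 0.614), with 9.36, 8.45, 9.16, 7.98 and 9.26 in GN, 8.43 to 8.50 in NK and 8.6 to 9.40 in T4.

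Mitochondrial genes were lower to a smaller extent. Of 71 tested genes of the respiratory chain, 55 fell and 2 rose (background 43.1% and 29%), with a median of -0.62 against -0.19 for all genes. After median centring the list median was -0.17 (31 lower and 6 higher), against 0.25 for all genes. Of 18 genes of the TCA cycle and pyruvate entry, 15 fell and 1 rose (median -0.77), and after median centring 10 and 2. That scaling called 3227 of all 11792 genes lower and 5412 higher. Ndufa9, of complex I, had 6.88, 6.78, 7.08, 6.51 and 6.96 in GN, against 9.07, 9.04 and 9.07 in NK and 8.88 to 9.50 (median 9.18) in T4 (-2.2 ± 0.13). Atp5g1, Atp5g2 and Atp5g3, which encode the same ATP synthase subunit c, differed by -2.2 ± 0.17, -2.31 ± 0.13 and -2.10 ± 0.16. Idh3a, of isocitrate dehydrogenase, had 6.60, 6.70, 6.5, 6.25 and 6.6 in GN, against 8.44, 8.90 and 9.04 in NK and 8.31 to 9.52 (median 8.83) in T4 (-2.52 ± 0.15), and Mdh1, cytosolic malate dehydrogenase, differed by -2.1 ± 0.14. In each of these GN lay below all lymphocyte arrays, where 2789 of all 11792 genes did. Mdh2, the mitochondrial malate dehydrogenase, was at 11.06 to 11.61 in GN, 10.57 to 10.95 in NK and 11.03 to 11.65 in T4 and did not pass (0.22 ± 0.14, adjusted p = 0.166). Ndufs6 did not pass either, and its difference of -0.04 was 0.41 under both other scalings.

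Glycolysis and glycogen genes went both ways as deposited, with a change of isoform in glycogen phosphorylase. Of 19 glycolysis genes tested, 9 rose and 6 fell (median 0.40), and of 13 glycogen genes 5 rose and 3 fell (median 0.03), against 29% and 43.1% of all genes. Median centring gave 12 higher and 2 lower (median 0.85) for glycolysis and 7 higher and 1 lower (median 0.47) for glycogen. It moved all genes too, giving 5412 of 11792 higher and 3227 lower, with a median of 0.25 in place of -0.19. Among the hexokinases, which trap glucose, Hk3 had 9.41, 9.53, 9.83, 9.39 and 9.91 in GN, against 6.72, 6.99 and 6.65 in NK and 6.22 to 6.61 (median 6.39) in T4 (3.04 ± 0.14) and Hk2 was 1.94 ± 0.14 higher. Pfkfb4, which sets the allosteric activator of phosphofructokinase, was 3.62 ± 0.13 higher, and Pfkp, the platelet-type phosphofructokinase, differed by -1.47 ± 0.15. Glycogen phosphorylase showed an exchange of forms. Pygl, the liver form, had 11.92, 11.90, 12.02, 11.69 and 11.92 in GN, against 6.27, 6.72 and 6.93 in NK and 5.66 to 6.5 (median 6.14) in T4 (5.62 ± 0.14), and Pygb, the brain form, had 7.82, 7.57, 7.77, 7.01 and 7.48 in GN, against 9.16, 9.17 and 9.58 in NK and 9.34 to 9.77 (median 9.66) in T4 (-1.94 ± 0.17). Ugp2 and Gys1, of glycogen synthesis, rose by 1.44 and 0.69. Gyg, glycogenin, which primes glycogen, did not pass (0.02 ± 0.22, adjusted p = 0.949), nor did Aldoc (-0.04 ± 0.12, adjusted p = 0.799; 0.41 under median centring).

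DNA replication genes fell and mitosis genes mostly did not pass. Of 24 replication genes tested, 19 fell and 2 rose (over all genes 43.1% and 29%; median -1.34), 14 having passed the filter only through lymphocytes. Mcm6, of the replicative helicase, had 6.50, 6.25, 6.09, 6.67 and 6.66 in GN, against 9.43, 9.35 and 9.90 in NK and 8.52 to 10.04 (median 9.72) in T4 (-3.26 ± 0.18). Pcna, the polymerase clamp, differed by -2.31 ± 0.16, Rrm1, of ribonucleotide reductase, by -2.75 ± 0.20 and Mcm7 by -1.91 ± 0.14. Gins2 did not pass (-0.06 ± 0.10, adjusted p = 0.638), its difference being 0.39 under both other scalings. Of 17 tested mitosis genes, 1 rose and 1 fell (over all genes 29% and 43.1%). Their median was -0.23, and 0.22 after median centring, beside -0.19 and 0.25 for all genes. The list mean was 7.97, 7.18, 7.66, 7.25 and 7.49 in GN, 7.98, 7.22 and 7.06 in NK and 6.75 to 8.46 in T4, where it was 6.75 to 7.15 in J2 and J25 and 7.72 to 8.46 in the others. Kif23, the motor of the central spindle in cytokinesis, was the one that rose, and by a wide margin: 11.41, 10.99, 11.08, 10.84 and 10.78 in GN, against 8.01, 7.42 and 7.39 in NK and 6.89 to 8.38 (median 7.17) in T4 (3.48 ± 0.24, adjusted p = 1.95e-08). Top2a, topoisomerase II alpha, fell (-1.07 ± 0.33, adjusted p = 0.01), a call lost without GN replicate 2 (-0.75) or T4 replicate 4 (-0.75) and after median centring (-0.62). Cdk1, the mitotic kinase, did not pass (-0.28 ± 0.21, adjusted p = 0.247), whereas without GN replicate 1 it did (-0.55). Aurkb did not pass (0.01 ± 0.20, adjusted p = 0.964).

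**Figure D4:**
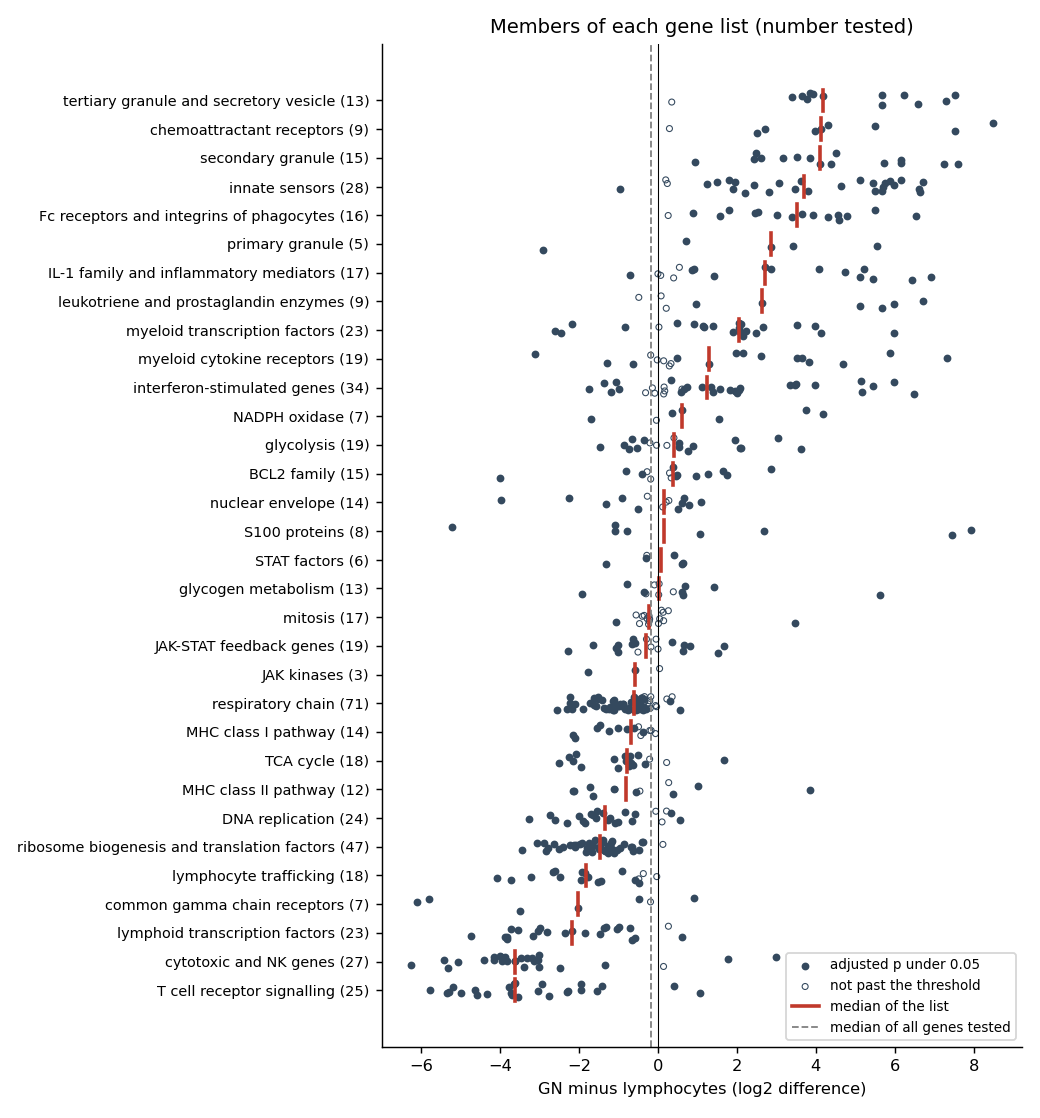
Log2 difference of GN minus lymphocytes (horizontal axis) for each tested member of 32 gene lists (rows, number tested in brackets), filled where the adjusted p was under 0.05, with the list median in red and the median of all genes tested (-0.19) dashed. Granule, receptor and sensor lists lie at the top with medians up to 4.18, and T cell receptor and cytotoxic lists at the bottom with medians of -3.62.

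Survival genes of the BCL2 family exchanged members. Of 15 tested, 8 rose and 3 fell (over all genes 29% and 43.1%; median 0.38). Median centring gave 10 higher and 2 lower (median 0.83), beside 5412 and 3227 of all 11792 genes (median 0.25). Bcl2, the survival factor of lymphocytes, had 6.90, 7.15, 6.87, 6.70 and 6.81 in GN, against 11.28, 11.33 and 11.17 in NK and 9.69 to 11.46 (median 10.45) in T4 (-4.0 ± 0.17). Mcl1, on which neutrophils depend, named after its values were seen, had 12.246, 11.65, 11.77, 11.65 and 12.41 in GN, against 10.25, 10.76 and 10.78 in NK and 10.28 to 11.03 (median 10.84) in T4 (1.26 ± 0.17), above every lymphocyte array. Of the death-promoting members, Bnip3 was 2.87 ± 0.15 higher, Pmaip1 (NOXA) 1.76 ± 0.17 and Bid 1.65 ± 0.12. Bcl2l11, BIM, did not pass (-0.19 ± 0.17, adjusted p = 0.344). The Bcl2a1 genes, close copies of each other, were not analysed here.

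The nuclear envelope, which is lobed in granulocytes, gave 5 genes higher and 5 lower of 14, near the shares over all genes (29% and 43.1%). After median centring these were 8 and 4, beside 5412 and 3227 of all 11792 genes. Nup210, a pore membrane protein, had 7.72, 7.63, 7.87, 7.66 and 7.39 in GN, against 11.33, 11.84 and 11.95 in NK and 10.85 to 11.74 (median 11.52) in T4 (-3.97 ± 0.16), the largest difference of the list. Banf1, which bridges chromatin to the envelope, differed by -2.3 ± 0.14 and Sun1 by -1.31 ± 0.14, whereas Lmnb1, lamin B1, was 0.78 ± 0.13 higher. Lmnb2 did not pass (0.12 ± 0.12, adjusted p = 0.392).

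Interferon-stimulated genes were higher in GN in most members, under vehicle and without an added stimulus. Of 34 tested, 22 rose and 5 fell (background 29% and 43.1%), with a median of 1.23. Their mean was 10.05, 10.06, 9.96, 9.73 and 9.85 in GN, 8.39, 7.86 and 7.86 in NK and 8.36 to 8.99 in T4. Among the largest differences were those of the IFITM family, some of whose proteins block viral entry, Ifitm6 at 6.49 ± 0.16, Ifitm2 at 5.16 ± 0.18 and Ifitm1 at 5.14 ± 0.17, and in Slfn4, a myeloid schlafen, with 12.49, 12.73, 12.34, 12.214 and 12.201 in GN, against 6.33, 6.18 and 6.51 in NK and 6.32 to 6.85 (median 6.6) in T4 (6.0 ± 0.12). Classical antiviral genes were also among them. Rsad2, viperin, and Oasl2, named after their values were seen, were 3.50 ± 0.25 and 3.99 ± 0.19 higher, with no overlap. Gbp3, a guanylate-binding protein also named afterwards, fell (-1.7 ± 0.19), and Slfn8 did not pass (-0.08 ± 0.25, adjusted p = 0.777).

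Of 14 antigen presentation genes of the class I pathway, 9 fell and none rose (over all genes 43.1% and 29%; median -0.69). Median centring gave 7 lower and 1 higher (median -0.25), beside 3227 and 5412 of all 11792 genes (median 0.25). B2m, the common light chain, was at 13.13 to 13.45 in GN, 13.31 to 13.42 in NK and 13.29 to 13.49 in T4 and did not pass (-0.06 ± 0.11, adjusted p = 0.612; 0.38 under median centring). Psmb10, an immunoproteasome subunit, differed by -2.2 ± 0.16, Erap1, which trims peptides, by -2.1 ± 0.17, and the chaperones Calr and Canx by -1.46 ± 0.14 and -1.24 ± 0.14. Of 12 class II pathway genes, 3 rose and 6 fell, near the shares over all genes (29% and 43.1%). Cd80, a costimulatory ligand, had 11.10, 10.88, 10.68, 10.85 and 10.36 in GN, against 7.03, 6.94 and 5.72 in NK and 6.14 to 9.13 (median 7.65) in T4 (3.84 ± 0.38), with T4 at 6.14 to 6.42 in J2 and J25 and 7.65 to 9.13 in the others. H2-DMa, which loads class II peptides, differed by -2.2 ± 0.18, and H2-Ob and H2-Oa, which restrain it, by -1.66 ± 0.15 and -1.12 ± 0.20. The class II chain H2-Eb1 was at 8.22, 8.47, 8.12, 8.31 and 8.6 in GN, 9.89, 10.81 and 7.72 in NK and 7.94 to 9.28 (median 8.36) in T4, the 2 highest values being the J2 NK arrays that also held Clec9a. It passed only when the J6 NK array was left out (-1.23) or in J2 alone (-1.0), of the alternatives run.

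Markers of other cells were also read in the GN arrays. Of 11 macrophage markers, 5 lay below the array median on all GN arrays and 4 above it on all, and the list averaged 7.52 to 7.73 in GN, 6.14 to 6.5 in NK and 5.91 to 7.43 in T4. Adgre1, an adhesion receptor of macrophages, had 10.61, 9.89, 10.40, 10.15 and 10.25 in GN, against 5.50, 5.29 and 6.02 in NK and 5.62 to 6.97 (median 6.13) in T4 (4.61 ± 0.15). Slc40a1, the iron exporter, had 11.99, 11.62, 11.86, 11.76 and 12.06 in GN, against 5.78, 5.99 and 6.74 in NK and 5.22 to 7.60 (median 6.79) in T4 (5.83 ± 0.18), and Hmox1, haem oxygenase 1, was at 9.54 to 10.57 in GN. The complement genes did not go with them. C1qa was at 6.89 to 7.16 in GN and 6.35 to 7.73 in lymphocytes (0.59 ± 0.18, adjusted p = 0.01), and C1qb at 7.31 to 8.01 in GN and 6.76 to 9.54 in lymphocytes (0.03 ± 0.21, adjusted p = 0.918). In 8 vehicle arrays labelled spleen macrophage, Adgre1 was at 12.46 to 12.83, C1qa at 10.74 to 12.35, C1qb at 12.75 to 13.44 and Slc40a1 at 5.11 to 5.72. GN arrays thus had more Slc40a1 than the arrays of that label, less Adgre1, and C1qb in the range of lymphocytes. The arrays labelled spleen macrophage had Hmox1 at 9.75 to 10.92, Csf1r at 11.18 to 12.33 and Cd5l at 11.43 to 12.46. In the same arrays Vcam1 was at 5.75 to 6.15 and Spic at 4.63 to 5.40. Their sort was not followed up, so the comparison holds for arrays of that label only.

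Of 6 eosinophil markers with a value, 3 lay below the array median on all GN arrays and 2 above it on all. The mean was 6.85 to 7.08 in GN, 5.83 to 6.04 in NK and 5.88 to 6.19 in T4. Siglecf was 2.1 ± 0.13 higher and Ccr3, the eotaxin receptor, 1.41 ± 0.20. Dendritic cell markers averaged 7.02 to 7.51 in GN, 6.87 to 8.40 in NK and 6.32 to 7.01 in T4. Clec9a reached 8.52 in GN replicate 1 (J2), and its difference of 1.58 ± 0.44 lost its call without NK replicate 3 (0.76). Flt3 did not pass (0.33 ± 0.24, adjusted p = 0.223). B cell markers averaged 6.36 to 6.62 in GN, 6.11 to 6.48 in NK and 6.14 to 6.50 in T4, erythroid markers 6.15 to 6.68, 7.10 to 7.20 and 6.35 to 6.5, platelet markers 7.23 to 7.54, 6.63 to 6.68 and 6.75 to 7.22, monocyte markers 7.03 to 7.29, 7.83 to 7.95 and 6.96 to 8.33, and basophil and mast cell markers 5.46 to 5.76, 5.31 to 5.39 and 5.22 to 5.56, in the order GN, NK and T4. The part of such cells in the GN values was not tested.

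The differences were then read in arrays that the comparison had not used. In 5 animals given a JAK inhibitor, each animal yielded GN, NK and T4, so that cell types were compared within animals. They had received SB00526221, SB00526222 or SB00526226 for 3 treatments (4 h after the last), or SB00526228 or SB00526222 for 14 (14 and 15 h after it), 1 animal each. Of 11674 genes tested there, 4330 were higher in GN (37.1%) and 5113 lower (43.8%). Of the 1070 genes at least 2-fold higher under vehicle, 1059 were tested, 1053 were called higher and 0 lower. Those called at least 2-fold in both numbered 1007, which is 94.1% of the vehicle list and 81.6% of the 1234 in the inhibitor-treated animals. Of the 2605 at least 2-fold lower, 2572 were tested, 2551 were called lower and 0 higher, and 2108 were at least 2-fold in both (80.9% of the vehicle list and 94.8% of 2223).

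Genes with large differences kept their direction. Cxcr2 differed by 7.46, S100a8 by 7.44, Csf3r by 6.80, Il1b by 6.31, Il2rb by -5.26, Il7r by -5.88 and Kif23 by 3.34, each in the same direction in 5 of 5 animals. Jak1 was -0.56 (adjusted p = 1.87e-05) and Tyk2 -1.40. Some genes of the JAK-STAT and mitosis lists went otherwise. Cish was -0.06 (adjusted p = 0.718) there and -1.06 under vehicle, and Pim1 0.77 (adjusted p = 9.22e-05) there and -0.18 under vehicle. Cdk1 was 0.71 (adjusted p = 0.00293) there and -0.28 under vehicle. Of the 17 mitosis genes tested under vehicle, all were tested in the inhibitor-treated animals, where 16 were higher and none lower, against 1 and 1 under vehicle. Whether these differences differ between the sets of arrays was not tested. Compound, schedule and the mix of experiments changed together, the inhibitor-treated animals coming from J2 and J3 only. In the vehicle arrays of J2 alone the median over 12 tested mitosis genes was 0.42, against -0.23 over all vehicle arrays.

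A further animal, given the vehicle at pH 3 for 14 treatments, yielded 1 GN and 1 T4 array and allows no test. Its GN minus T4 difference had the same sign for 1064 of the 1070 genes and 2518 of the 2605. Cxcr2 differed by 7.89, S100a8 by 7.62, Camp by 4.10, Il7r by -6.64, Jak1 by -0.35 and Kif23 by 3.59.

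**Figure D5:**
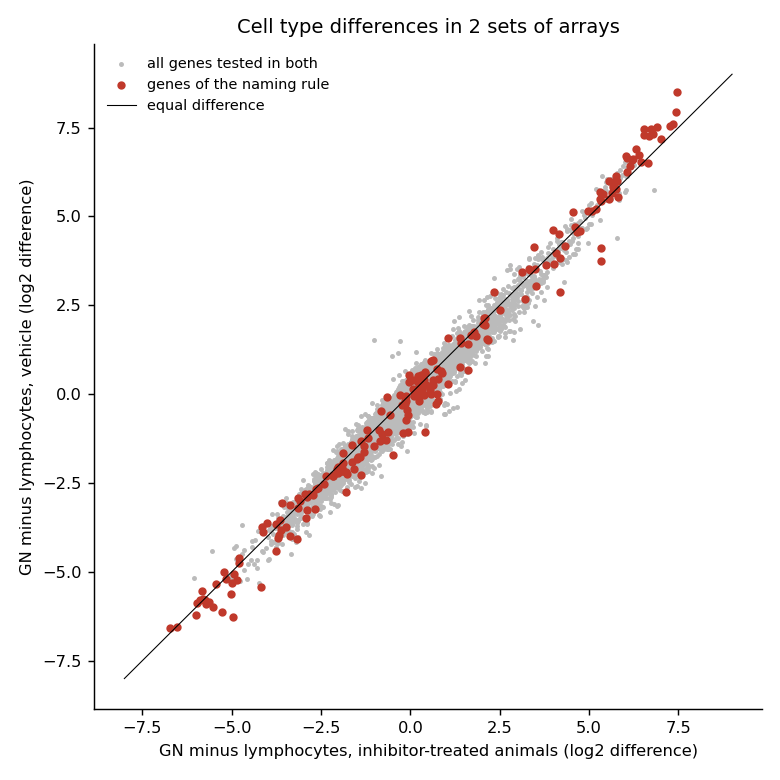
Log2 difference of GN minus lymphocytes in 5 inhibitor-treated animals (horizontal axis) and under vehicle (vertical axis) for the genes tested in both (grey) and the genes of the naming rule (red), with the line of equal difference. The large differences lie along the line in both directions, such as Cxcr2 at 7.46 and 8.50.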

How the data were processed

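The deposited table holds linear signal intensity per probe set for 168 arrays, which the authors made with RMA in Affymetrix Power Tools, per the submitters' processing notes (versions not given in the sources used here). On the 15 arrays the medians were 122.0 to 136.2 and the maxima 14904 to 20519, so values were taken as linear and put on the log2 scale without a pseudocount. Log2 values are printed to 2 decimals, and some to 1 or 3. Spleens were disrupted and cells sorted into Trizol, per the labels' protocols. Arrays give no read depth; their number limits the precision. Replicates are arrays of separate animals as read from the titles.

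Of 24922 probe sets, 21425 had 1 gene symbol, 1399 several and 2098 none. Probe sets with 1 symbol gave 19752 genes, and where a gene had several, the probe set of highest mean level on the 168 arrays stood for it. Genes above the array median on at least 3 of the 15 arrays were tested (11792). Differences came from limma 3.58.1 (R 4.3.3, statmod 1.5.0) with cell type and experiment as fixed terms, contrasts of GN with NK, with T4 and with their mean, and Benjamini-Hochberg adjustment over all genes tested. In a test on simulated data, 100 genes were changed by 1 log2 unit and 100 by 0.5. Of these 83% and 21% were recovered, with 4 false calls among 11792 genes. Far fewer genes were changed there than were called in the real data. The adjustment was therefore stricter in the simulation, and its shares do not carry over.

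The comparison, the gene lists and the members named were chosen with earlier results of these data known. Named genes were the 15 largest differences in each direction that held in all 3 contrasts, from each list the 4 members at most with the strongest test statistics and the 1 with the weakest, and a fixed set of JAK-STAT and sort genes. Other genes are said to be named after their values were seen. The arrays of inhibitor-treated animals were fitted with the animal as a term. The alternatives were other scalings, no filter, an offset of 50, the median over probe sets, no experiment term, the animal as a random or fixed block, array weights, NK and T4 as 1 group, fewer experiments and each array left out.

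Arrays with the same title number were taken as from 1 animal. After removing cell type means, the correlation of such pairs was 0.352, 0.341, -0.125, 0.258, -0.117 and 0.51, and the correlation within animals estimated across all genes was 0.148. Arrays of other tissues, cells and treatments were not used here.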

Additional observations from a re-analysis of the deposited data

Results flagged for a closer look

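In 396 groups of 5 or 7 arrays of the named genes, 21 single arrays stood apart from the rest of their group by more than Dixon's critical value. Chance flags about 1 in 20 groups. No explanation was tested.

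T4 replicate 6 of J8, the array with the most C1qb and Lyz2, was flagged in 6 genes. It was lowest in Il7r (11.12, nearest other array 12.07), Ms4a4b (9.76, nearest 10.51), Slfn8 (7.86, nearest 9.43), Erap1 (8.34, nearest 9.15) and Tlr1 (8.7, the others 9.49 to 9.81), and highest in Ifitm6 (6.38, nearest 5.85).

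GN replicate 1 of J2 was lowest in S100a6 (10.01, nearest 11.23), Il21r (6.65, nearest 7.17) and Cebpd (9.15, nearest 10.13), and highest in Cdk1 (7.75, nearest 7.04). GN replicate 2 of J3, low in Camp and Ltf without passing the critical value there, was highest in Ctsc (8.51, nearest 7.57) and Alpl (7.89, nearest 7.34) and lowest in Erap1 (6.4, nearest 7.19).

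Among the other GN arrays, Orm2 was highest in replicate 5 (8.41, nearest 7.39) and so was Pim1 (10.86, nearest 9.82), Alox5 was lowest in replicate 4 (11.56, nearest 11.87) and Cd5 lowest in replicate 3 (7.24, nearest 7.43). Among the other T4 arrays, replicate 1 was highest in Orm2 (6.84, nearest 6.52) and Ccl4 (6.77). Replicate 7 was highest in Il13ra1 (7.22, nearest 6.26) and lowest in Nup210 (10.85, nearest 11.42).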

How the results depend on the processing

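The counts changed most with the scaling, the filter and the number of arrays. Of 196 named genes tested, 149 kept direction and call throughout. With the NK and T4 arrays as 1 group, Ncr1 (-3.18), Gzma (-2.86), Itgax (1.86), Il6ra (1.80), Cd6 (-1.64), Tlr1 (-1.12) and Stat5b (0.54) lost their call. Over all gene results and alternatives, 45 lost the call and 56 gained it without a change of sign, and 16 changed sign. Median centring gave 5412 genes higher and 3227 lower against lymphocytes (1998 and 1535 at least 2-fold), 5007 and 2837 against NK (1753 and 1525), 5256 and 3063 against T4 (2476 and 1618), and 4514 and 2346 against both (1527 and 1161). Without the filter the genes higher numbered 7919 against lymphocytes, 4541 against NK, 7454 against T4 and 4006 against both. The 7960 genes below the filter had a median difference of 0.37. In J2 alone (4 arrays) the counts were 1439 higher and 3081 lower against lymphocytes, 1348 higher against NK, 1314 and 2774 against T4, and 980 and 2306 against both. In J6 alone (5 arrays) they were 1950 and 3222, 1260 and 2524, 1516 and 2674, and 1051 and 2123. Fewer arrays enter these fits. Leaving out 1 array at a time gave 2761 to 3666 genes higher and 4407 to 5347 lower against lymphocytes. Leaving out a T4 array of J8 or J25 could change the spread and the genes tested but not the differences themselves. The lowest counts of higher genes, without NK replicate 3, were 1624 against NK and 1468 against both, the ranges over all arrays left out, singly or as a pair, being 1624 to 2975 against NK and 1468 to 2580 against both. The inhibitor-treated animals gave 3968 genes higher against NK and 3426 against both. With the animal as a fixed block, 3173 genes were higher and 5091 lower against lymphocytes, and of the named genes Stat5a alone lost its call (-0.34, adjusted p = 0.0566). With the random block Alpl gained one (0.35, adjusted p = 0.0434). Leaving out GN replicate 4 and T4 replicate 6 together, chosen after seeing the data because they correlated least with their own type, gave 3633 and 5261. Some small differences changed sign. Median centring turned Rac2 to 0.41, Ccl4 to 0.44, Stat5a to 0.15, Itgal to 0.41, Aldoc to 0.41, Ndufs6 to 0.41, Gins2 to 0.39 and B2m to 0.38. Quantile normalization turned Stat5a to 0.06, Ndufs6 to 0.41 and Gins2 to 0.39. In the inhibitor-treated animals Rac2 was 0.24, Pim1 was 0.77, Itgal was 0.39, Top2a was 0.40 and Cdk1 was 0.71. The causes were not tested. Signal near background limits the low end: a gene at its floor in lymphocytes or in GN has a compressed fold. In the simulated data 21% of differences of 0.5 were recovered, a share that does not carry over to these arrays.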

Other observations

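Outside the gene lists, 2 microRNA genes were higher in GN and are named here after their values were seen. Mir15a and Mir16-1 lie close together on the minus strand of chromosome 14 and encode microRNAs with the same seed, known for repressing Bcl2 and cell cycle genes. Their mature sequences (RefSeq, GRCm38.p6) are shown for the seed they share, bases 2 to 8, in capitals.
mmu-miR-15a-5p: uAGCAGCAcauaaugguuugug
mmu-miR-16-5p: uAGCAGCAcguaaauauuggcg
The array reads the gene and not the mature form. Mir15a had 10.40, 10.23, 10.21, 10.43 and 10.51 in GN, against 7.91, 7.40 and 7.96 in NK and 7.25 to 8.23 (median 7.73) in T4, a difference of 2.59 ± 0.17 (limma, adjusted p = 1.38e-08). Mir16-1 had 9.57, 8.94, 8.49, 8.44 and 9.30 in GN, against 6.15, 5.49 and 5.50 in NK and 5.32 to 5.82 (median 5.52) in T4, a difference of 3.51 ± 0.20 (adjusted p = 2.03e-09). In both, every GN array lay above every lymphocyte array.

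Genes below the filter were not tested in the main comparison. They numbered 7960, with a median difference of 0.37 against -0.19 for the genes tested, and 4485 would be called higher and 166 lower if tested.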
